A study of Caenorhabditis elegans with 3 samples.

Results

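The major sperm protein genes and other genes named for a role in sperm were followed in whole larvae of the nematode Caenorhabditis elegans. Members were all probe sets whose annotated symbol began with msp, nspd, ssp or spe and a number, or was gsp-3 or gsp-4, and a probe set that reads several genes was kept and named as the set. These were 84 of the 22625 probe sets on the array, and they name 85 of its 18217 annotated genes: 32 msp, 10 nspd, 12 ssp, 2 gsp and 29 spe genes. RefSeq lists 96 genes that fit the same names, and the other 11 were not analysed here. The larvae were of the wild-type Bristol strain N2, given as first larval stage (L1) in every group, from a synchronous culture whose parents lived at 20 °C on Escherichia coli OP50. There were 3 groups with 1 array each: larvae held at 30 °C for 24 h (heat shock, the positive control for stress), larvae sent through a needle that carried an electrical voltage (bio-electrospray, which turns a liquid with living material into fine charged droplets), and untreated control larvae. The age of each group beyond the stage is not given in the sources used here.

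Nematode sperm crawl instead of swimming, and they do so on filaments of major sperm protein (MSP) in place of actin. MSP is also released from sperm as a signal that starts meiotic maturation of the oocyte and contraction of the sheath around it. Many near-identical genes encode it, and they are switched on together in developing spermatocytes, which a hermaphrodite makes around the fourth larval stage (L4). The L1 gonad is a primordium with few germ cells and no spermatocytes. The other genes here act beside MSP. The gsp-3 and gsp-4 genes encode sperm protein phosphatases, the ssp genes encode small proteins with an MSP-type domain, the nspd genes encode nematode-specific peptides of the male germline, and spe genes are named for the defective spermatogenesis of their mutants.

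Values are log2 levels from GCRMA, an array method that puts dim probe sets on a common low floor. The array medians were 3.189 for heat shock, 3.157 for bio-electrospray and 3.147 for control. Differences are log2 levels subtracted, so −1 stands for a level 2-fold lower. The small number of arrays limits the precision: with 1 array in each group nothing shows how far replicates would spread. Differences were therefore counted by size, at 2-fold or more, and not tested. The 18 hybridization spike-in probe sets, which read transcripts added during the assay, had a median difference from control of −0.53 after heat shock (range −1.07 to −0.15) and −0.19 after bio-electrospray (range −0.48 to 0.01).

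Most of the members may read more than 1 transcript. By their names or their annotation 56 of the 84 are shared between transcripts or genes and 28 are not, and the split falls along the families. Of the 32 msp probe sets 31 are shared, and all 31 have names that mark probes matching more than 1 transcript. Of these, 8 are annotated to several genes, the largest to a set of 17: W08D2.9, msp-58, msp-52, msp-113, msp-51, msp-81, msp-78, msp-79, msp-65, msp-59, msp-19, Y59E9AR.1, Y59E9AR.7, msp-53, msp-57, msp-55 and msp-31. The shared share was 8 of 10 for nspd, 6 of 10 for ssp, 2 of 2 for gsp and 9 of 30 for spe. A value given below for an msp gene is therefore that of its probe set, which other msp transcripts may also feed, and the 32 values are not 32 separate measurements.

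The msp probe sets made up most of the members above the array median, 20 of 26 after heat shock, 27 of 39 after bio-electrospray and 28 of 40 in control. Signal for these spermatocyte genes was thus present in larvae labelled L1, and it was lowest after heat shock. All 32 msp probe sets had a lower level on the heat shock array than on the control array, with differences of −0.03 to −3.23 and a median of −2.08, and 23 of them were at least 2-fold lower (27 below control and 22 at least 2-fold lower once arrays were shifted by their spike-ins). Outside the msp family 1 of 52 members was at least 2-fold lower, spe-44, which was under 2-fold with the same shift (−0.71). Over all 84 members the count was 24 lower and 0 higher. Among all 22625 probe sets 4.1% were at least 2-fold lower and 4.61% at least 2-fold higher, with a median difference of −0.019. By any amount, 13042 of them lay below control and 6416 above. Of the 32 msp probe sets 4 passed the median of neither array. When a level above the median was required on either of the arrays compared, 40 members remained, 24 of them lower, against 7.75% lower and 8.71% higher over the whole array. Of those 40 members 14 passed through the control array alone. With no level filter, 23 of 56 shared members were at least 2-fold lower and 1 of 28 unshared members. All 23 were among the 31 shared msp probe sets, and no shared member of another class was 2-fold lower. Of the 28 unshared members 24 lay at or below the control median, where a lower level can hardly show. The medians over all 28 unshared members were −0.03 after heat shock and 0.01 after bio-electrospray.

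**Figure D1:**
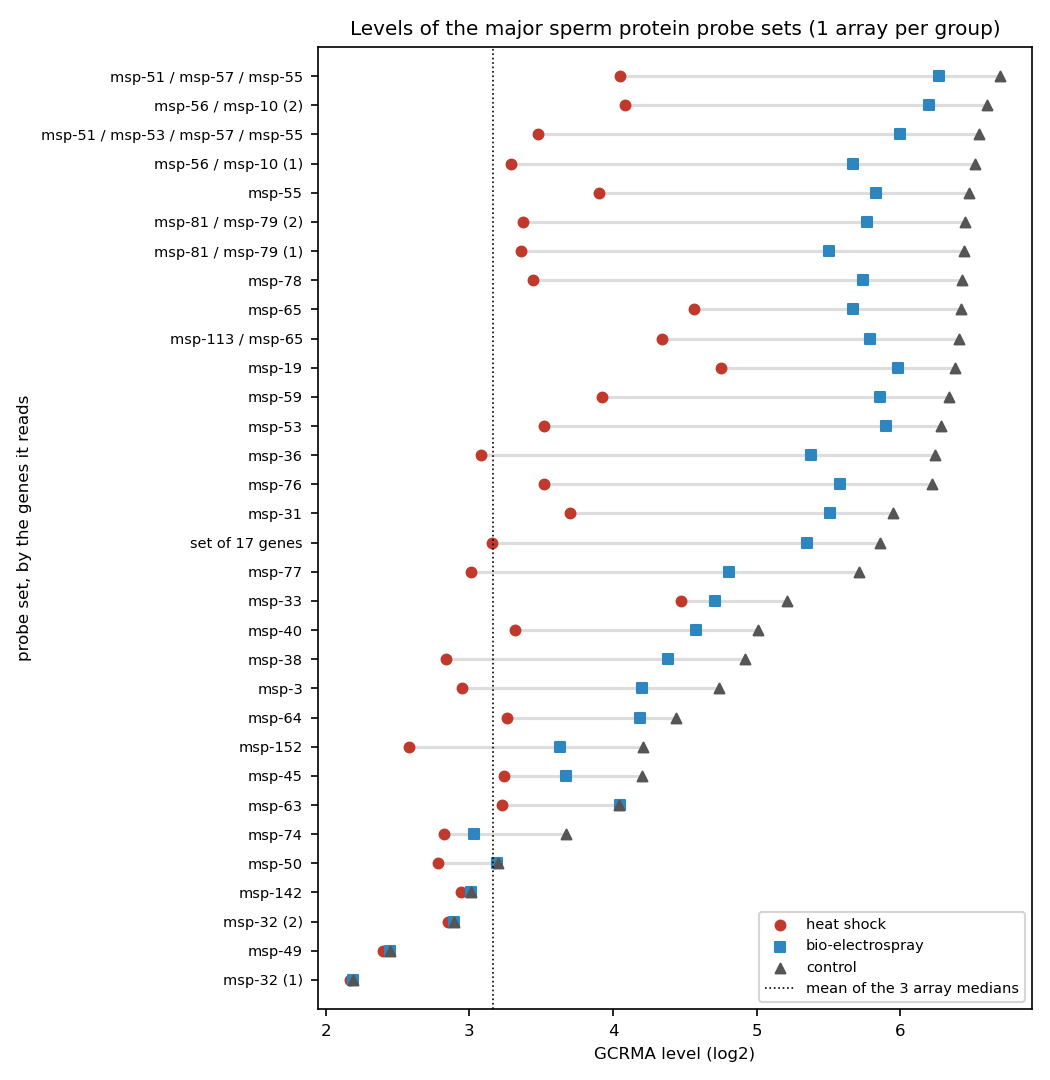
Log2 GCRMA level (horizontal axis) of each of the 32 msp probe sets (rows, ordered by control level, labelled with the genes read; numbers in brackets tell apart probe sets of the same genes). In the levels as deposited the heat shock point lies left of the control point in every row (in 27 of 32 after the spike-in shift), and the bio-electrospray point lies between them in most rows with a control level above 3.5.

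The probe set shared by msp-56 and msp-10 had the largest difference. Its level was 3.29 after heat shock, 5.67 after bio-electrospray and 6.52 in control. After heat shock it was 9.38-fold lower than in control, at −3.23. A second probe set for the same genes stood at 4.08 after heat shock, 6.20 after bio-electrospray and 6.60 in control, so the heat difference was −2.52. Both showed the control array highest and the heat shock array lowest. The probe sets shared by msp-81 and msp-79 both differed by −3.08 after heat shock. One of them stood at 3.36 after heat shock, 5.50 after bio-electrospray and 6.44 in control, and the other at 3.37, 5.77 and 6.45.

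Among probe sets annotated to a single gene, msp-36 stood at 3.08 after heat shock, 5.38 after bio-electrospray and 6.24 in control, and was 8.96-fold lower after heat shock. The level of msp-78 was 3.44 after heat shock, 5.74 after bio-electrospray and 6.43 in control. For msp-55 the levels were 3.90, 5.83 and 6.48 on the same arrays. Ranked among all probe sets of an array, the 32 msp probe sets had a median percentile of 51.9 after heat shock, 78.0 after bio-electrospray and 83.1 in control. The typical msp probe set thus lay near the middle of the heat shock array and in the upper part of the other arrays.

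Not every msp probe set was so low after heat shock. The msp-19 probe set kept a level of 4.75 after heat shock, against 5.98 after bio-electrospray and 6.38 in control, and msp-65 kept 4.56, against 5.67 and 6.42. The msp-33 probe set stood at 4.47 after heat shock, 4.71 after bio-electrospray and 5.21 in control, a heat difference of −0.74. These probe sets were 3.11-fold, 3.64-fold and 1.68-fold lower after heat shock than in control. Near the floor, msp-32 was read by a shared probe set at 2.85, 2.89 and 2.89 (heat shock, bio-electrospray and control) and by the single unshared msp probe set at 2.17, 2.19 and 2.19. With no other unshared msp probe set, no msp gene had a specific reading above the floor.

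The size of the difference went with the level of the probe set. For the 15 msp probe sets with a mean level over the 3 arrays of 5 or more, the heat differences ran from −3.23 to −1.64 with a median of −2.63. The 10 with a mean level from 3.5 to below 5 had a median of −1.74 (−3.16 to −0.74), and the 7 below 3.5 had a median of −0.07 (−1.63 to −0.03). Across the 32 probe sets the mean level and the heat difference had a Pearson r of −0.83 and a Spearman rho of −0.66. The mean level holds the same heat shock and control levels as the difference, so the measures are coupled and part of this is built in. These points share arrays, probes and the floor, so they are no independent readings, and a probe set at the floor cannot show a lower level.

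The msp genes lie in 3 stretches of the genome in the RefSeq assembly WBcel235, with neighbours in a stretch no more than 1 Mb apart: 15 genes on chromosome II and 10 in each of 2 stretches on chromosome IV. The median heat difference was −2.50 and −2.99 in the stretches of chromosome IV. The 17 probe sets whose genes all lie on chromosome IV were all at least 2-fold lower, with a median of −2.70 (−3.23 to −1.64). Of the 14 of chromosome II, 5 were at least 2-fold lower, with a median of −0.83 (−2.26 to −0.03). Their control levels ran from 4.92 to 6.69 for chromosome IV and from 2.19 to 5.95 for chromosome II, and levels of different probe sets depend on their probes. The chromosome II member with the largest heat difference was msp-31, at 3.70 after heat shock, 5.51 after bio-electrospray and 5.95 in control. Whether the chromosomes differ beyond these levels was not tested.

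After bio-electrospray the msp probe sets were also lower, by less. Of 32, 27 lay below the control level, 4 were exactly equal to it and 1, msp-63, lay above it by 0.02. The median difference was −0.52, with a range of −0.94 to 0.02, against a median of 0.004 over all probe sets. None of the 84 members was 2-fold lower or higher, where the share over the array was 0.0221% lower and 0.119% higher (0.0437% lower and 0.236% higher among probe sets above the median of either array). At a smaller step, 11 msp probe sets were at least 1.5-fold lower and no other member was, against 69 probe sets of the whole array, or 0.305%. The middle 95% of all differences ran from −0.30 to 0.23, and 25 of the 32 msp probe sets lay below it. This range and the 0.305% rest on all 22625 probe sets, of which 16274 lay within 0.05 of control. Neither was matched to the levels of the msp probe sets.

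The largest differences after bio-electrospray were those of msp-81 with msp-79, at 5.50 after bio-electrospray against 6.44 in control (−0.94), and of msp-77, at 4.81 after bio-electrospray against 5.71 in control (−0.90). The second probe set of msp-81 with msp-79 differed by −0.68. Next came msp-36 at −0.86 and one probe set of msp-56 with msp-10 at −0.85, whose second probe set differed by −0.40. Repeated probe sets of the same genes thus had the same direction and unequal sizes. The msp-65 and msp-78 probe sets differed by −0.75 and −0.69. The exception msp-63 stood at 4.05 after bio-electrospray and 4.04 in control. It differed from control by −0.81 after heat shock.

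The spike-in probe sets were lower on the same array, with a median of −0.19. When each array was shifted by its spike-ins, the msp median after bio-electrospray was −0.33, with 26 probe sets below 0 and 6 above, while the median of all probe sets moved to 0.192. After heat shock the same shift gave an msp median of −1.55 with 27 below 0 and 5 above, and a median of all probe sets of 0.515. Such a shift moves every probe set of an array by the same amount. Among the 1184 probe sets outside the members whose names mark probes that match several transcripts in the same way (ending in x_at), 8.53% were at least 2-fold lower after heat shock. After bio-electrospray 0.338% of them were lower by 1.5-fold or more.

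**Figure D2:**
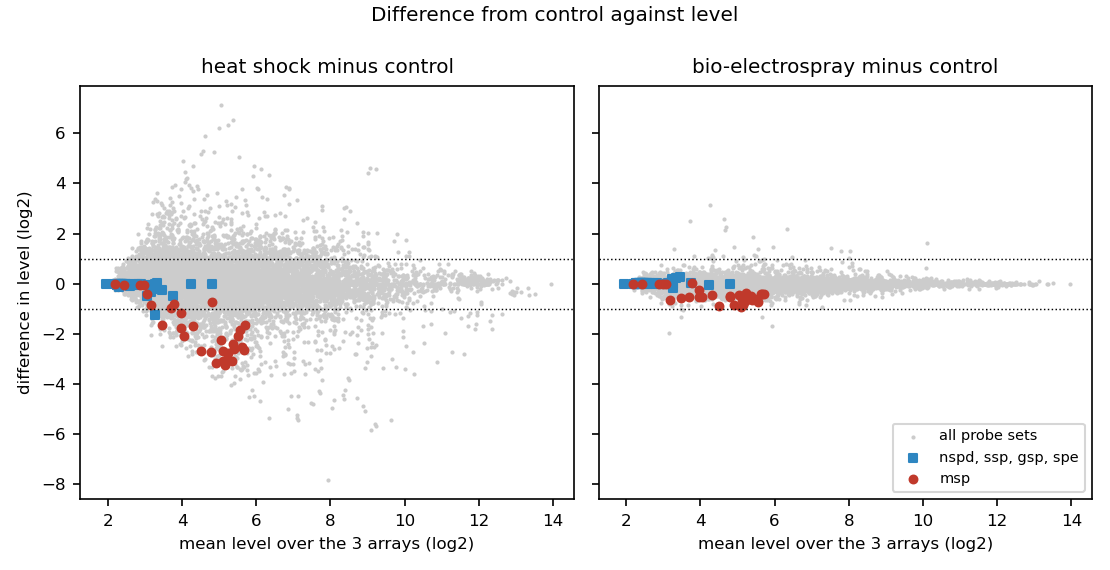
Difference in log2 level from control (vertical axis) against the mean log2 level over the 3 arrays (horizontal axis) for heat shock (left) and bio-electrospray (right), with all probe sets in grey, msp in red circles and the other members in blue squares. Dotted lines mark 2-fold. The msp points form a band that descends to −3.23 on the left and lies between −0.94 and 0.02 on the right, while most other members sit at 0 near the floor.

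Set against bio-electrospray, heat shock left 22 of 32 msp probe sets at least 2-fold lower and none higher, with a median of −1.50 (−2.52 to −0.03). Over all 84 members 23 were lower, spe-44 being the one outside the family, against 3.85% lower and 4.54% higher over the array. Among probe sets above the median of either array 39 members remained, with 23 lower, against 7.26% and 8.57% over the array. Of those 39 members 13 passed through the bio-electrospray array alone. With a level above the median required on both arrays, 16 of 26 members were lower. For that filter no share over the array is given here, so this count has no background beside it. The largest difference was that of the set msp-51, msp-53, msp-57 and msp-55, at 3.48 after heat shock and 6.00 after bio-electrospray (−2.52). The 3 comparisons share their arrays, so they are not independent of each other.

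The transcription factor gene spe-44 gave the one unshared reading that was 2-fold apart. SPE-44 switches on many spermatogenesis genes, msp genes among them, in developing spermatocytes. Its unshared probe set stood at 2.49 after heat shock, 3.57 after bio-electrospray and 3.73 in control. Heat shock left it 2.36-fold lower than control (−1.24), and bio-electrospray differed by −0.16. It was no longer 2-fold lower than control with the spike-in shift (−0.71) or with 16 added to the linear levels (−0.44), nor lower than bio-electrospray by that much (−0.74 and −0.37, against −1.08 as deposited). On the heat shock array its level was in the range of dim probe sets, at percentile 23.6, against percentile 56.9 after bio-electrospray and 58.9 in control.

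**Figure D3:**
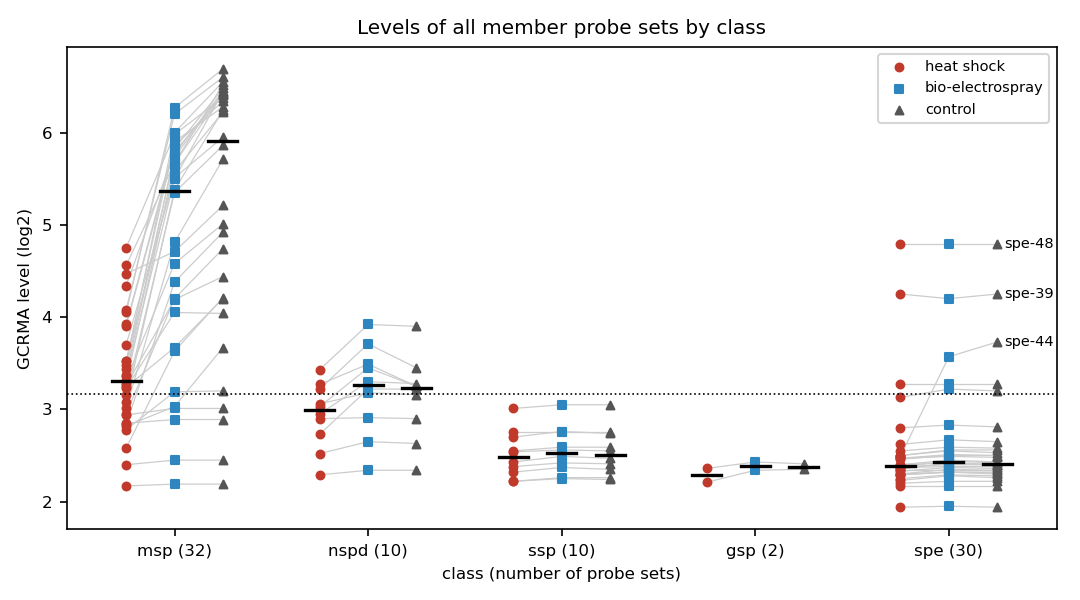
Log2 GCRMA levels (vertical axis) of all 84 members by class, with grey lines joining a probe set across the heat shock, bio-electrospray and control arrays and black bars at the class medians; the dotted line is the mean of the 3 array medians. The msp medians are 3.30, 5.37 and 5.91 in that order, and the other 4 classes have medians of 2.29 to 3.26 on every array.

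The other spe genes lay near the floor or had nearly equal levels on the 3 arrays. Of the 30 spe probe sets 27 were at or below the array median after heat shock, and 25 each after bio-electrospray and in control, with class medians of 2.39, 2.43 and 2.41. Their differences from control had a median of −0.03 after heat shock and 0.01 after bio-electrospray. Apart from spe-44, those above the control median were spe-48, spe-39, spe-15 and spe-6. The spe-48 probe set had the same level of 4.79 on all 3 arrays. The level of spe-39 was 4.25 after heat shock, 4.20 after bio-electrospray and 4.25 in control, and its product also acts in vesicle trafficking outside the germline. A level of 3.27 on every array was found for spe-15, which encodes a myosin VI that sorts organelles as spermatids bud. The casein kinase gene spe-6, needed for MSP assembly and for holding spermatids inactive, stood at 3.13 after heat shock, 3.22 after bio-electrospray and 3.20 in control.

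The other genes for meiotic segregation or for the fibrous body-membranous organelle, the store in which MSP is packed in spermatocytes, all lay near the floor. The presenilin gene spe-4 was at 2.40 after heat shock, 2.42 after bio-electrospray and 2.40 in control. For the palmitoyltransferase gene spe-10 the level was 2.34 on each array. The kelch protein gene spe-26 was at 2.55 after heat shock, 2.59 after bio-electrospray and 2.58 in control. The vacuolar ATPase subunit gene spe-5 was at 2.38 after heat shock and 2.40 on both other arrays, and spe-18 at 2.37 after heat shock and 2.38 on both others.

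The genes of spermatid activation also lay near the floor, apart from spe-6. The tyrosine kinase gene spe-8 stood at 2.30 after heat shock and 2.32 on both other arrays. Its partners in the pathway that starts pseudopod extension were spe-12 (2.50, 2.55 and 2.53 after heat shock, bio-electrospray and in control), spe-19 (2.30, 2.35 and 2.34) and spe-27 (2.38, 2.44 and 2.42). Without spe-6, the activation genes stayed at or below 2.67 on every array, the level of spe-43 after bio-electrospray. Genes of contact with the oocyte were all below the array median too. The EGF-repeat receptor gene spe-9 was at 2.23 after heat shock, 2.28 after bio-electrospray and 2.26 in control, and the tetraspan gene spe-38 at 2.25, 2.29 and 2.28. The ion channel gene spe-41, also called trp-3, was at 2.47, 2.49 and 2.48, and spe-36, spe-49 and spe-51 lay between 2.17 and 2.51. The gene spe-11, whose product enters the egg with the sperm and is needed for the eggshell, stood at 2.80 after heat shock, 2.83 after bio-electrospray and 2.81 in control. No difference in these genes was detectable at such levels.

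The phosphatase genes gsp-3 and gsp-4, which act in sperm chromosome segregation and crawling, were also near the floor, on shared probe sets. The gsp-3 probe set stood at 2.21 after heat shock, 2.34 after bio-electrospray and 2.35 in control, and gsp-4 at 2.36, 2.43 and 2.41. All 10 ssp probe sets were below the median of every array. The unshared probe set of ssp-16 stood at 3.01 after heat shock and 3.05 on both other arrays. The ssp differences ran from −0.04 to 0 after heat shock and from 0 to 0.02 after bio-electrospray.

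The nspd probe sets were near the array median, with levels after bio-electrospray at or above control. Their median level was 2.99 after heat shock, 3.26 after bio-electrospray and 3.23 in control. Heat shock differences ran from −0.49 to 0.02 with a median of −0.17, and no probe set was 2-fold apart. After bio-electrospray 8 of 10 lay above control and none below, by at most 0.26 and with a median of 0.02. This direction was not particular to nspd. Of all 22625 probe sets 11651 lay above control and 4671 below. For ssp 7 of 10 lay above and none below, and for spe 20 of 30 above and 2 below. The nspd-4 probe set stood at 3.22 after heat shock, 3.71 after bio-electrospray and 3.45 in control, and nspd-7 at 3.27, 3.49 and 3.25. The probe set shared by nspd-5 and nspd-4 stood at 3.43 after heat shock, 3.92 after bio-electrospray and 3.90 in control. The 2 unshared nspd probe sets, of nspd-8 and nspd-9, were below the median of every array, with heat differences of −0.05 and 0.

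Among sperm genes that carry other names, regulators of germ cell fate and meiosis had the 3 differences past 2-fold. Of 30 further genes listed, 22 had a probe set annotated to that gene alone, 8 of them with names that mark sharing, and 8 genes lay above the median on at least 1 of the heat shock and control arrays. At least 2-fold lower after heat shock were 3 of the 22, and none was higher, against 4.1% lower over all probe sets. The germline RNA-binding protein gene cpb-1, needed for meiosis in spermatocytes, stood at 2.97 after heat shock, 6.89 after bio-electrospray and 6.78 in control (heat difference −3.81). Its second probe set stood at 2.16 after heat shock, 2.89 after bio-electrospray and 2.61 in control, a heat difference of −0.45. The genes fog-3 and fog-1, which commit germ cells to the sperm fate, differed by −1.97 and −1.24. Their levels were 2.38 and 3.74 after heat shock, 4.48 and 4.87 after bio-electrospray, and 4.36 and 4.98 in control. The probe sets of fog-3 and fog-1 and the first of cpb-1 are unshared. In the other direction elt-1, a GATA factor of the epidermis that also activates msp genes, was higher by 0.84 after heat shock. After bio-electrospray none of the 22 was 2-fold apart. The 4 largest differences there were 0.24 for the phosphatase gene pph-1, 0.13 for fog-3, 0.11 for cpb-1 and −0.11 for fog-1, and the median was 0.02.

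Most genes through which MSP signals to oocytes and sheath cells were within 2-fold of control. All 14 were measured, and 2 were at least 2-fold lower after heat shock, none higher, with a median of −0.14. All 14 passed the level filter, and 7.75% of the probe sets past it were lower, against 4.1% of all probe sets. The gap junction gene inx-22 was at 2.23 after heat shock, 3.69 after bio-electrospray and 3.62 in control, and gsa-1, for a G protein alpha subunit, at 4.56, 5.52 and 5.95. A second gsa-1 probe set lay near the floor, at 2.18 after heat shock, 2.22 after bio-electrospray and 2.20 in control. Next were inx-14 at −0.96 and the phosphatase gene ptp-2 at −0.87 after heat shock. The MSP receptor gene vab-1, which also acts in the nervous system, was at 6.43 after heat shock, 5.82 after bio-electrospray and 5.87 in control. None was 2-fold apart after bio-electrospray, where gsa-1 had the largest difference, −0.42.

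**Figure D4:**
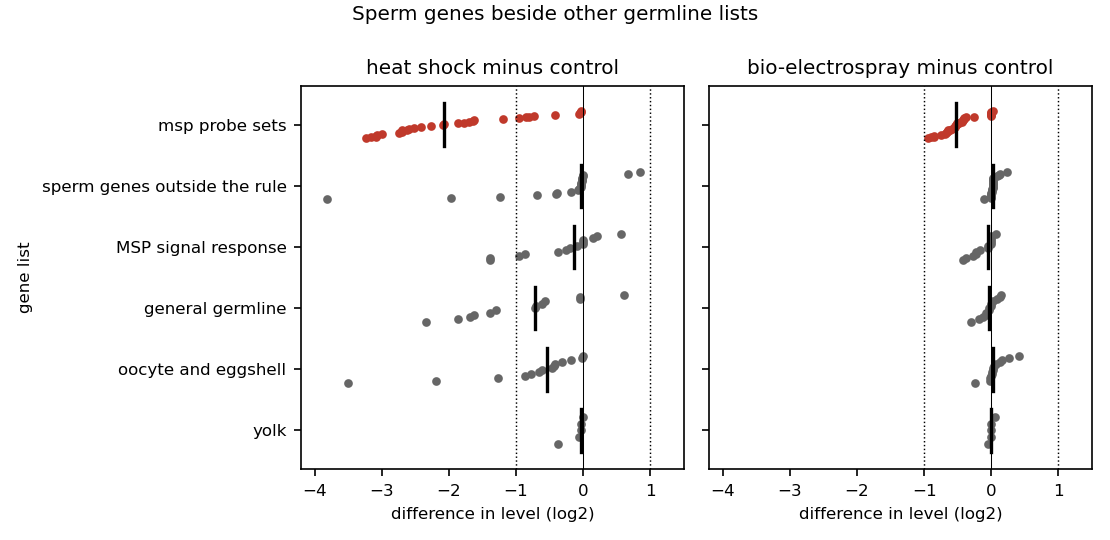
Differences in log2 level from control (horizontal axis) after heat shock (left) and bio-electrospray (right) for the 32 msp probe sets and for the genes of 5 lists, 1 point each, with black bars at the medians and dotted lines at 2-fold. On the left the msp median is −2.08 and the list medians lie between −0.72 and −0.03. On the right the msp median is −0.52 and the list medians lie between −0.05 and 0.02. Many list points are dim probe sets that can hardly show a lower level. Past the level filter the heat shock medians are −2.335 for 28 msp probe sets and −1.3 for 11 general germline genes. They are −0.72 for 10 oocyte and eggshell genes and −0.55 for 8 sperm genes outside the rule. The filter also keeps probe sets that are high in control alone, which lowers such medians. Of the 28 msp probe sets 8 passed that way. Above the heat shock median lay 10 of the 11 germline, 4 of the 10 oocyte and eggshell and 6 of the 8 sperm genes.

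Some other germ cell genes were also lower after heat shock, and others were not. In bulk RNA, fewer cells of a type and less RNA per cell cannot be told apart. The 11 of 13 general germ cell genes past the level filter had a median of −1.3, with 10 below control and 1 above. All 11 lay above the median of the control array and 10 above that of the heat shock array. Over all probe sets 4.1% were at least 2-fold lower (7.75% above the level filter). Among all 13 genes 6 were at least 2-fold lower and none higher, with a median of −0.72. They included gld-1 (−2.34, and −0.02 on a second probe set near the floor), pgl-3 (−1.87), mex-5 (−1.69, and −0.62 on a second probe set) and deps-1 (−1.62), all regulators or granule proteins of germ cells. In the same list syp-1, of the synaptonemal complex, was higher by 0.60, at 5.72 after heat shock, 5.20 after bio-electrospray and 5.12 in control. The glh-2 and nos-2 probe sets differed by −0.05 each, but both lay below the median of every array, where a lower level can hardly show. The summed linear level of the 13 was 678.2 after heat shock, 1116.1 after bio-electrospray and 1164.3 in control. The helicase gene glh-1 made up 46.2% to 52.9% of these sums, and without it they were 319.6 after heat shock, 600.0 after bio-electrospray and 617.2 in control. The glh-1 probe set in the sums has a name that marks sharing and differed by −0.61 after heat shock. A second, unshared glh-1 probe set stood at 7.69 on every array. Of 14 oocyte and eggshell genes 3 were 2-fold lower after heat shock and none higher (median −0.54, and −0.72 over the 10 past the level filter). Only 4 of those 10 lay above the median of the heat shock array, so the filter itself favours a lower median. The summed level of the 14 was 316.0 after heat shock, 533.4 after bio-electrospray and 522.9 in control. The kinase gene mbk-2 made up 53.0% to 66.6% of that, and without it the sums were 105.4 after heat shock, 250.7 after bio-electrospray and 240.2 in control. The eggshell genes cbd-1 and cpg-2 differed by −3.50 and −2.19 (−2.70 and −1.22 on their second probe sets), oma-2 by −1.27 and cpg-1 by −0.86 (−0.16 and −0.27 on their second probe sets). The defining yolk genes of the adult intestine lay near the floor on all arrays, at 2.45 to 3.13 after heat shock, 2.47 to 3.46 after bio-electrospray and 2.47 to 3.51 in control over 5 genes. The part of germ cell number or stage in the msp differences was not tested.

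After bio-electrospray the medians of these lists lay close to 0 while that of msp was −0.52. The median difference was −0.03 over the 13 germ cell genes and 0.02 over the 14 oocyte and eggshell genes, with none 2-fold apart. The largest single differences were −0.30 for pgl-3 and 0.41 for oma-2. Whether msp differs from these lists beyond the spread between cultures was not tested.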

How the data were processed

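RNA of whole larvae was amplified and labelled from 200 ng and hybridized to Affymetrix arrays, 1 per group, per the labels' protocols. The deposited values are log2 levels made with GCRMA, per the submitters' processing notes; its version and options are not given in the sources used here, and log2 was read from the values (1.81 to 13.96). Scanner files were not used here. GCRMA puts dim probe sets on a common floor and gives many equal values: 17 of the 84 members were exactly equal between bio-electrospray and control. So were 6303 of all 22625 probe sets. Equal values also occurred above the floor, as for spe-48, and how far they come from the processing was not tested.

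Names came from the platform annotation, which gives 20766 probe sets 1 symbol, 887 several and 972 none. All 85 member genes were found in RefSeq (WBcel235). A probe set counted as shared if annotated to several genes or if its name marks sharing (x_at, s_at). Levels were subtracted and counted at 2-fold, over all probe sets, and again over those whose level exceeded the median (percentile 50) of either array compared. Lists outside the rule were read by each gene's probe set with the highest mean level. There were no replicates, so no test was run. The counting step was tested on simulated data. Within each class the text names the 6 probe sets with the highest mean level and the 6 with the largest difference per comparison past the filter, gsp-3, gsp-4 and any spe gene, and up to 4 genes per list; the vab-1, syp-1, glh-1, glh-2, nos-2, mbk-2, msp-31, msp-32, msp-33, msp-63, nspd-8, nspd-9 and second-probe-set values and those in the closing observations lie outside this or were chosen after the values were seen. The members and lists were chosen with earlier results of these data known. Alternatives covered other level filters, scalings, thresholds and shared or unshared probe sets. Every value column belonged to a sample (0 did not). Python 3.11.15, numpy 2.4.6, pandas 2.3.3, scipy 1.17.1 and matplotlib 3.10.9 were used.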

Additional observations from a re-analysis of the deposited data

How the results depend on the processing

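No paired analysis was possible because each group has 1 array, and no replicate could be left out. The count of members at least 2-fold lower after heat shock against control was 24, and stayed within 1.5 times of it in 12 of 13 settings. With unshared probe sets only it was 1 of 4. Some settings could not lower the count, such as no level filter or the 1.5-fold threshold. The number of members counted ran from 4 to 84 between settings, and for most settings no share over the array is given here. Heat shock against bio-electrospray gave 23, against 14 with 16 added to the linear levels, 15 at a 3-fold threshold and 1 with unshared probe sets only. For bio-electrospray against control it was 0, against 11 at a 1.5-fold threshold. No member was past the fold threshold in the higher direction in any of the 13 settings.

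The median over the members above the level filter moves with the members counted, since 44 of the 84 lie at or below the median of both the heat shock and control arrays. For heat shock against control it was −1.665 as reported, −0.049 with no level filter, −1.968 above the median on both arrays and also with the mean of the 3 arrays above the median (a setting chosen after seeing the data), −2.696 above the 75th percentile, −1.132 with the spike-in shift, −0.87 with the offset of 16, −0.034 for unshared and −1.825 for shared probe sets only. For bio-electrospray against control it was −0.438, against 0 with no filter and for unshared probe sets, −0.621 above the 75th percentile, −0.25 with the spike-in shift and −0.308 with the offset. For heat shock against bio-electrospray it was −1.233, against −0.061 with no filter, −1.355 above the median on both arrays or by the mean of the 3 arrays, −2.14 above the 75th percentile, −0.888 with the spike-in shift, −0.619 with the offset, −0.043 for unshared probe sets and −1.118 with 1 probe set per gene or gene set. Of the 24 probe sets 2-fold lower after heat shock against control, 22 stayed so with the spike-in shift and 19 with the offset, and all 24 with quantile normalization or median centring, and none changed direction; spe-44 was among those lost with both the shift (−0.71) and the offset (−0.44). Probe sets near the floor limit what can be read.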

Other observations

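The msd genes, a small family of sperm proteins with an MSP-type domain that lies outside the member names, were read by shared probe sets at low levels. The set shared by msd-3 and msd-1 stood at 2.76 after heat shock, 2.83 after bio-electrospray and 3.39 in control, so both treated arrays were below control and close to each other. The set shared by msd-2, msd-3 and msd-1 was at 2.38 after heat shock and 2.43 on both other arrays. The sperm chromatin genes spch-2 and spch-3 shared a probe set at 2.59 after heat shock, 2.68 after bio-electrospray and 2.72 in control. These values were picked after they were seen.

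The gene swm-1, for a protease inhibitor that keeps male sperm from activating too early, had a level of 8.16 after heat shock, 8.93 after bio-electrospray and 8.84 in control. Its protease partner try-5, made in the male seminal tract, was listed at 2.37 on every array.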
